A study of Mus musculus with 7 samples.

Results

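Type 1 conventional dendritic cells (cDC1) are the dendritic cells that take up dead cells and present their antigens to CD8 T cells, a process called cross-presentation. Their development depends on the transcription factors IRF8 and BATF3, and in culture they arise under FLT3 ligand together with type 2 conventional (cDC2) and plasmacytoid dendritic cells. The genes followed here mark this lineage by name: Itgae, Cadm1, Wdfy4, Naaa, Snx22, Rab7b, Gcsam, Cd24a and Ifi205. They were looked up among the probes of 7 one-colour Agilent arrays through the transcript accession of each probe. Of the 9 genes, 7 matched a probe, and all 7 were tested, among 14549 genes tested of 20018 that matched a probe. Itgae, which encodes the integrin chain CD103, and Ifi205, of the interferon-inducible Ifi200 family, matched no probe and are not analysed here.

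The arrays measured dendritic cells grown from common myeloid progenitors of C57BL/6 mice. The 3 knockout-labelled arrays came from Gata2(f/f)/ER-Cre donors, which carry a floxed Gata2 gene and a Cre recombinase that tamoxifen activates. The 4 control arrays came from Gata2(f/f) donors without the Cre. All donors received tamoxifen between days 1 and 10, and their progenitors were sorted on days 20 to 22 and cultured with FLT3 ligand at 200 ng/ml on bone marrow feeder cells of SJL mice. Donor cells carry the CD45.2 and feeder cells the CD45.1 form of a leukocyte surface protein, but the protocols leave out how the dendritic cells were parted from the feeder cells. They also do not state whether each replicate is a separate animal. P-values therefore measure the spread between these arrays alone. The cells were not sorted into dendritic cell types per the labels, so fewer cells of a type and less RNA per cell cannot be told apart.

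Gata2, the zinc finger transcription factor that was targeted, was brighter on the knockout-labelled arrays. Its probe averaged 2.99 ± 0.06 (SD, n = 3) against 0.17 ± 0.29 (SD, n = 4) in controls, on the log2 scale relative to each array's 75th percentile, which is the scale of every level given here (limma adjusted p = 0.000153). No source used here places that probe inside or outside the deleted part of the gene, so each direction below is that of the arrays as labelled. The 2 groups lay in separate rows of 1 slide, and row and group cannot be told apart. The share of spots well above background was 61.5% to 67.4% on the knockout-labelled arrays and 54.1% to 56.9% on the controls.

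The transcription factor genes of the lineage were measured in both groups. Irf8 read 6.05, 5.90 and 5.69 on the knockout-labelled arrays and between 6.02 and 6.11 on the controls, and Batf3 read between 1.81 and 1.96 against 1.52 to 2.14. Clec9a, a receptor for dead cells of cDC1, was well above background on all 7 arrays. Its level was -1.84, -1.11 and -1.22 on the knockout-labelled arrays and between -1.52 and -0.74 on the controls. Xcr1, the chemokine receptor most specific to the lineage, was well above background on 1 of 3 knockout-labelled arrays and on 0 of 4 controls, and was not tested. Cd8a, which marks the lineage in spleen, was well above background on 2 of 3 knockout-labelled arrays and on 1 of 4 controls. The cultures thus held transcripts of Irf8, Batf3 and Clec9a, while Xcr1 was not well above background on 6 of 7 arrays.

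Of the 7 tested markers, Gcsam was the only one to pass the test, and it rose. Across all genes 2.89% were called, 1.51% higher and 1.39% lower (limma, Benjamini-Hochberg adjusted p under 0.05), and none of the markers was called lower. At an unadjusted p under 0.05, 2 markers were higher (Gcsam and Cd24a) and 1 was lower (Cadm1), while 6.14% of all genes were higher and 7.34% lower at that threshold. Groups did not overlap for Gcsam and Cd24a, both higher in the knockout-labelled arrays, while 5.77% of all genes were separated in that direction and 8.08% in the other. The median log2 fold change of the 7 markers was 0.17, beside -0.05 for all tested genes, with 4 markers above 0 and 3 below. These counts describe a short list and were not tested as a set.

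**Figure D1:**
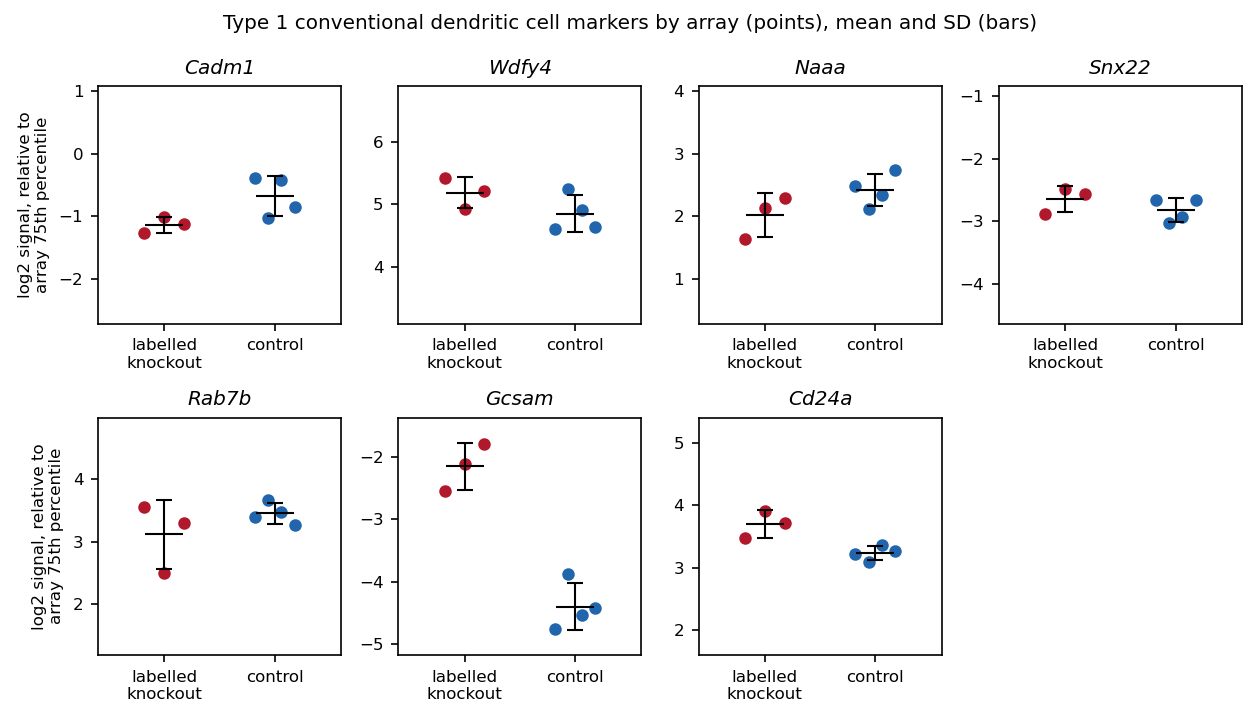
Level of each measured marker on every array (points), as log2 signal relative to the array's 75th percentile, with the mean and SD (bars) of the 3 knockout-labelled arrays and the 4 controls. Each panel spans the same number of log2 units. The Gcsam points of the knockout-labelled arrays, from -2.54 to -1.80, all lie above the controls, from -4.76 to -3.88, and the Cd24a groups are also apart, while the other 5 markers overlap.

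Gcsam encodes a small adaptor protein of germinal centre B cells that in human cells associates with the kinase SYK and limits motility. Its probe read -2.54, -2.11 and -1.80 on the knockout-labelled arrays, against -4.76, -3.88, -4.52 and -4.42 on the controls. In unscaled processed signal these were 572, 885 and 1065 intensity units against 122, 211, 116 and 144. Every array labelled knockout was above every control, and the lowest of them stood more than 1 log2 unit above the highest control. The level rose 4.74-fold in the fit over all genes (limma adjusted p = 0.00226), a log2 fold change of 2.25 with an SE of 0.25 and a 95% interval from 1.67 to 2.82 on the log2 scale. The probe was well above background on all 7 arrays. It is listed for 1 of the gene's annotated transcripts, and no other probe matched the gene.

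The window of 250 bases upstream of the annotated start of Gcsam is shown because Gcsam is the marker whose level changed, and that of Snx22 because it is the measured marker whose window holds GATAA, letters that GATA factors recognise. Windows are from RefSeq, GRCm38.p6, and 5 of the 9 genes had one (Wdfy4, Naaa, Snx22, Gcsam and Ifi205). The Gcsam window is chr16:45610190-45610439 on the plus strand, and the Snx22 window chr9:66069760-66070009 on the minus strand, upstream of the first of its 2 listed starts. Capitals mark the matched letters, GAGGAAG in Gcsam and GATAA in Snx22, each on the opposite strand.
Gcsam: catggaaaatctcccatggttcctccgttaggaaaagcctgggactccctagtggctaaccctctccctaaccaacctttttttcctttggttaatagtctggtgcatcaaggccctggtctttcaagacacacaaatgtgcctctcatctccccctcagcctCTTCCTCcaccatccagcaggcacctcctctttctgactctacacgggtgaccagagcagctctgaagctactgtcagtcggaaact
Snx22: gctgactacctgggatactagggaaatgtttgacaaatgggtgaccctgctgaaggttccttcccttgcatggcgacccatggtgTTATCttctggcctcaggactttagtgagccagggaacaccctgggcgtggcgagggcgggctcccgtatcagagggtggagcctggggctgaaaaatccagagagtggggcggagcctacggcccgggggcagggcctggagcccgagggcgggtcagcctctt
Short motifs, none of which contains another, were searched on both strands. They were chosen after longer and composite forms of such motifs had been searched in the same windows. GATAA was present in 22.6% of the 32851 windows of the table. TGANTCA, the form that AP-1 and BATF proteins recognise, was present in 6.75%, and GAGGAAG, a core that the myeloid factor PU.1 recognises, in 10.6%. The Gcsam window held GAGGAAG 87 bases upstream of the start, and no GATAA or TGANTCA. The Snx22 window held GATAA 165 bases upstream, and neither of the others. The windows of Wdfy4, Naaa and Ifi205 held none of the 3. These matches describe letters in a short window and say nothing of binding.

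Gcsam is also a gene of B lymphocytes, so B cell markers are given beside it. Of 12 listed B lymphocyte genes, 10 were tested and none passed the limma test, with 1 higher and 1 lower at an unadjusted p under 0.05, near the shares of all genes (6.14% and 7.34%). Vpreb1, a surrogate light chain of B cell precursors, read -0.73, -1.75 and -1.18 against -2.59 to -1.98, with no overlap (log2 fold change 0.96, adjusted p = 0.117). It passed with array weights (adjusted p = 0.0241) and without knockout-labelled replicate 2 (adjusted p = 0.042). The summed level of the 10 B lymphocyte genes, on the linear scale as multiples of each array's 75th percentile, was 15.37 to 18.98 on the knockout-labelled arrays and 15.4 to 21.25 on the controls. Of 12 listed T lymphocyte genes 10 were tested, of which Lck, the kinase of the T cell receptor, rose 3.07-fold (log2 fold change 1.62, adjusted p = 0.000234) and none fell. At an unadjusted p under 0.05, 3 were higher and none lower, beside 6.14% and 7.34% of all genes, and 8 of the 10 log2 fold changes were above 0. Cd2, an adhesion molecule of T and NK cells, had one of 0.86 (adjusted p = 0.0991) and Zap70, a kinase of T cell receptor signalling, one of 0.58 (adjusted p = 0.0913), both with groups apart. The summed level of the T lymphocyte genes was 14.5 to 19.6 on the knockout-labelled arrays against 11.6 to 12.8 on the controls, without overlap. Without Lck it was 10.38, 15.56 and 10.46 on the knockout-labelled arrays and 10.11 to 11.48 on the controls, so only replicate 2 labelled knockout lay above the control range. Cd28 was the largest part of the sum without Lck on every array and was not called (log2 fold change 0.26, limma adjusted p = 0.653). Cd3e, a chain of the T cell receptor complex, was well above background on every array and had a log2 fold change of -0.05. The part of lymphocyte RNA in the Gcsam result was not tested.

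Cd24a encodes the glycosylated surface protein CD24, a marker of the cDC1 equivalents of FLT3 ligand cultures that is also abundant on immature B cells, granulocytes and red cell precursors. It read 3.47, 3.91 and 3.71 on the knockout-labelled arrays, against 3.21, 3.09, 3.36 and 3.26 on the controls. All 3 knockout-labelled arrays were above all 4 controls, the closest being replicate 1 labelled knockout and control replicate 3. The log2 fold change was 0.46 (SE 0.15, 95% interval 0.13 to 0.80), and it did not pass the limma test across all genes (adjusted p = 0.188). Of 10 listed erythroid genes 5 were tested and none passed, with none at an unadjusted p under 0.05 either. Their summed level was 0.299 to 0.318 on the knockout-labelled arrays and 0.315 to 0.359 on the controls. These genes were dim, with group means from -4.83 for Klf1 on the knockout-labelled arrays to -3.34 for Epor on the controls. Of the 5, 3 had a log2 fold change below 0. Epor, the erythropoietin receptor, had one of -0.55 (adjusted p = 0.474), and Hba-a1, an alpha globin gene, one of 0.29 (adjusted p = 0.472). The part of B cell, granulocyte or red cell precursor RNA in the Cd24a values was not tested. Siglecg, a sialic acid binding receptor that recognises CD24, had a log2 fold change of 0.32 (adjusted p = 0.35).

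Wdfy4 encodes a BEACH domain protein required for cross-presentation of cell-associated antigen by cDC1 in mice. Its tested probe read 5.42, 4.93 and 5.22 on the knockout-labelled arrays, against 4.61, 5.25, 4.91 and 4.64 on the controls. Control replicate 2 lay within the range of the knockout-labelled arrays, and the other 3 controls lay below it. The log2 fold change was 0.34 (SE 0.20, 95% interval -0.12 to 0.79, adjusted p = 0.527). A second probe of Wdfy4 was well above background on 1 of 3 knockout-labelled arrays and on 0 of 4 controls, and was not tested. It read between -7.69 and -6.26 on the knockout-labelled arrays and between -7.55 and -6.42 on the controls, so the measurement of Wdfy4 rests on 1 of its 2 probes.

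Cadm1 encodes an adhesion molecule of the immunoglobulin superfamily that binds CRTAM on activated T cells. It was the marker with the lowest log2 fold change. Its probe read -1.27, -1.02 and -1.13 on the knockout-labelled arrays, against -0.39, -1.03, -0.43 and -0.85 on the controls. Control replicate 2 reached down to the knockout-labelled arrays, and the other 3 controls were above all of them. The log2 fold change was -0.46 (SE 0.19, 95% interval -0.90 to -0.03), with an unadjusted p of 0.0398 and a limma adjusted p = 0.334. Mast cells also carry CADM1, and of 13 listed mast cell and basophil genes 11 were tested, of which 7 fell, beside 1.39% of all genes. With the replicate block 5 fell, and with probes well above background on all arrays alone 6 of 8 tested. Ms4a2, one of the 7, was well above background on 0 of 3 knockout-labelled arrays and 4 of 4 controls, so it passed the filter through the controls alone. Cpa3, a carboxypeptidase of mast cell granules, fell 32.5-fold (adjusted p = 0.000117), and Mcpt8, a basophil protease, fell 6.16-fold (adjusted p = 0.00027). The summed level of the 11 tested genes was 8.06 to 10.9 on the knockout-labelled arrays against 18.97 to 30.51 on the controls, without overlap. Kit was the largest part of that sum on each knockout-labelled array and was not called (log2 fold change -0.20, limma adjusted p = 0.688). The part of mast cell RNA in the Cadm1 values was not tested. Of the other Cadm genes, Cadm3 had a log2 fold change of 0.38 and Cadm4 of -0.55, and neither passed (adjusted p = 0.473 and 0.533).

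Naaa encodes the lysosomal N-acylethanolamine acid amidase, which breaks down the lipid mediator palmitoylethanolamide. It read 1.63, 2.14 and 2.29 on the knockout-labelled arrays, against 2.48, 2.12, 2.35 and 2.74 on the controls. Replicate 1 labelled knockout was the lowest array, and the groups overlapped at control replicate 2. The log2 fold change was -0.40 (SE 0.21, 95% interval -0.88 to 0.08, adjusted p = 0.461). Faah, the other main hydrolase of these lipids, had a log2 fold change of 0.69 with groups apart (adjusted p = 0.0751). Napepld, which makes them, had one of -0.41, also with groups apart (adjusted p = 0.246), and neither passed, though Faah did without a filter on dim probes (adjusted p = 0.032). Asah1, the acid ceramidase related to Naaa, had a log2 fold change of -0.50 (adjusted p = 0.395).

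Snx22 encodes a sorting nexin, a protein that binds phosphoinositides of endosomal membranes. It read -2.87, -2.48 and -2.57 on the knockout-labelled arrays, against -2.65, -3.03, -2.93 and -2.65 on the controls. Replicate 1 labelled knockout fell within the control range, and the other 2 lay above it. The log2 fold change was 0.17 (SE 0.16, 95% interval -0.19 to 0.54, adjusted p = 0.702). None of the 6 other sorting nexin genes listed passed, and their log2 fold changes lay between -0.47 for Snx24 and 0.06 for Snx20.

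Rab7b encodes a small GTPase of late endosomes that governs traffic to the Golgi. It read 3.56, 2.50 and 3.30 on the knockout-labelled arrays, against 3.40, 3.67, 3.48 and 3.27 on the controls. Replicate 2 labelled knockout stood apart, and the other 2 lay within the control range. The SD was 0.55 on the knockout-labelled arrays (n = 3) and 0.17 on the controls (n = 4). The log2 fold change was -0.33 (SE 0.25, 95% interval -0.90 to 0.24, adjusted p = 0.628), and it was -0.02 without replicate 2 labelled knockout. Rab7, the widely expressed relative, had a log2 fold change of -0.12 (adjusted p = 0.902). Rab38, a GTPase of lysosome-related organelles, fell 1.83-fold (log2 fold change -0.87, adjusted p = 0.0287). That call was lost without any 1 of the 7 arrays (adjusted p from 0.052 to 0.0897) and with a replicate block (adjusted p = 0.216).

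Within each group the markers ranked the arrays in opposite ways. Among the knockout-labelled arrays, replicate 1 was the lowest for Cadm1, Naaa, Snx22, Gcsam and Cd24a and the highest for Wdfy4 and Rab7b. Among the controls, replicate 2 was the lowest for Cadm1, Naaa, Snx22 and Cd24a and the highest for Wdfy4, Rab7b and Gcsam. The summed level of the 7 markers was 69.5, 56.5 and 66.0 on the knockout-labelled arrays and 50.8, 64.4, 57.4 and 51.7 on the controls, with overlap, and the Wdfy4 probe is the largest part of it on every array.

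**Figure D2:**
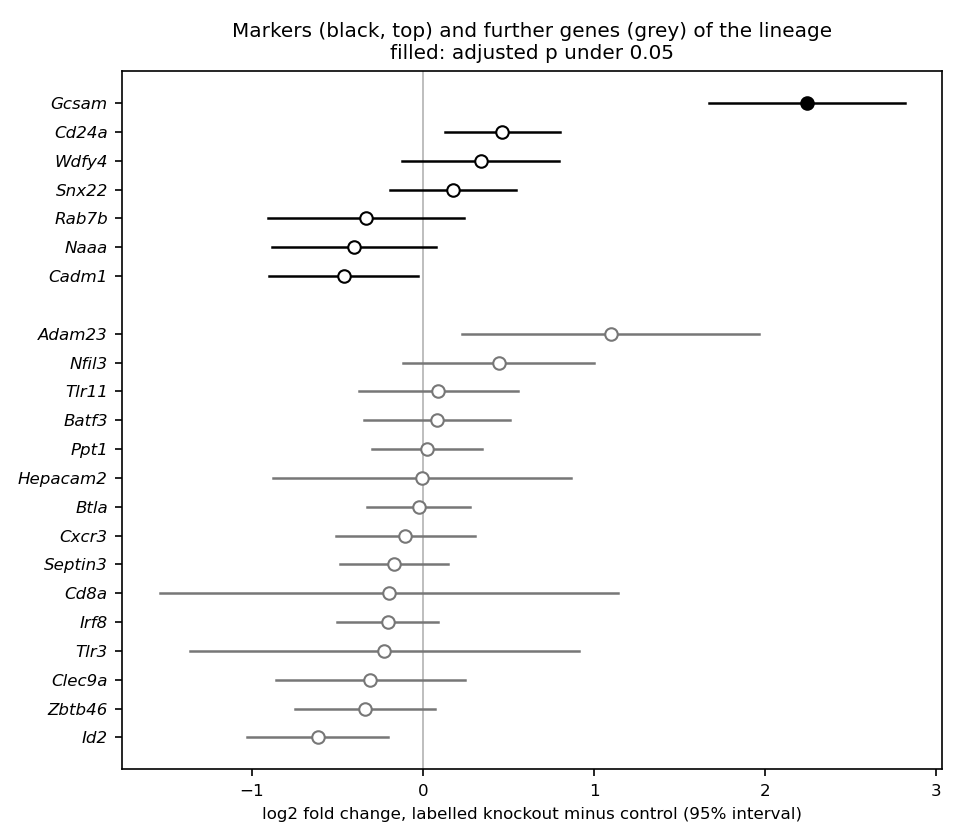
Log2 fold change of each tested gene, labelled knockout minus control, with its 95% interval from limma, for the 7 measured markers (black) and the 15 tested further genes of the lineage (grey). Gcsam is the one filled point, called at an adjusted p under 0.05, and its interval from 1.67 to 2.82 lies above those of the other 6 markers.

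Among 17 further genes tied to cDC1, 15 were tested and none passed the limma test, with 1 higher (Adam23) and 1 lower (Id2) at an unadjusted p under 0.05, near the shares of all genes (6.14% and 7.34%). Their median log2 fold change was -0.10. Unlike that of the 7 markers, their summed level did not overlap, at 176.4 to 208.8 on the knockout-labelled arrays against 211 to 241.9 on the controls. Septin3 and Irf8 had the highest levels among them, with log2 fold changes of -0.17 and -0.21, neither called. The sum was not taken under the other settings. Irf8 had a log2 fold change of -0.21 (95% interval -0.50 to 0.09, adjusted p = 0.558), Batf3 of 0.08 (-0.34 to 0.51, adjusted p = 0.9) and Clec9a of -0.31 (-0.86 to 0.25, adjusted p = 0.647). Id2, an inhibitor of E proteins needed for cDC1 development, read 4.16 to 4.30 on the knockout-labelled arrays against 4.41 to 5.07 on the controls. Its log2 fold change was -0.62 (95% interval -1.03 to -0.20), and it did not pass (adjusted p = 0.153), except without control replicate 4 (adjusted p = 0.0397). Adam23, a membrane protein without known protease activity, read -3.15, -3.57 and -2.76 against -5.07 to -3.65, with a log2 fold change of 1.10 (adjusted p = 0.236).

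The 19 listed genes of cross-presentation and MHC class I loading were all tested and none passed the limma test, with 4 lower and none higher at an unadjusted p under 0.05, where 7.34% of all genes were lower and 6.14% higher. All 19 had a log2 fold change below 0, with a median of -0.17, while 8431 of 14549 tested genes were below 0. With quantile normalization 15 of the 19 were below 0 and the median was -0.07. The summed level of the 19 was 412.2 to 480.8 on the knockout-labelled arrays against 493.3 to 578.8 on the controls, without overlap. Cybb, the oxidase subunit of phagosomes, had a log2 fold change of -0.45 (adjusted p = 0.171), and B2m, the light chain of MHC class I, of -0.43 (adjusted p = 0.403). Among 16 partners of the markers, 15 were tested and none passed, with 2 higher and 2 lower at an unadjusted p under 0.05 (6.14% and 7.34% of all genes). Itgb7, the beta chain that pairs with CD103, read 5.17 to 5.50 on the knockout-labelled arrays against 5.58 to 5.75 on the controls (log2 fold change -0.30, adjusted p = 0.385). Cdh1, the E-cadherin that this integrin binds, had a log2 fold change of -0.51 (adjusted p = 0.306). Nectin3, a related adhesion molecule that binds CADM1, had one of 0.62 (adjusted p = 0.606).

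Of 45 genes in the same families as the markers, 34 were tested, with a median log2 fold change of -0.18. Of these Rab38 and Itgam fell and none rose, beside 1.39% lower and 1.51% higher of all genes. At an unadjusted p under 0.05 in limma, 7 were lower and 1 higher (7.34% and 6.14% of all genes). None was called with the replicate block, without replicate 1 or 3 labelled knockout, or without control replicate 1, 3 or 4. Among the tested relatives of Ifi205, only Aim2, a sensor of cytosolic DNA, had a log2 fold change above 0, of 0.50 (adjusted p = 0.423). The lowest were Ifi214 at -0.85 (adjusted p = 0.358) and Ifi209 at -0.64 (adjusted p = 0.241), and no tested member of that family passed. Genes of the Ifi200 family are close in sequence, so their probes may not tell them apart.

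The neighbouring dendritic cell types were read from lists of their own. Of 14 cDC2 genes, all tested, 2 fell and 1 rose, beside 1.39% lower and 1.51% higher of all genes. At an unadjusted p under 0.05 in limma, 4 were lower and 1 higher (7.34% and 6.14% of all genes). The summed level of the cDC2 genes was 124.9 to 140.9 on the knockout-labelled arrays against 151.6 to 171.6 on the controls, without overlap. Clec10a, a galactose-type lectin, fell 4.86-fold (log2 fold change -2.28, SE 0.15, adjusted p = 0.000186). Ltb, the lymphotoxin beta chain, was 3.41-fold higher (adjusted p = 0.00161), with a log2 fold change of 1.77 and an SE of 0.18. Itgam, the integrin chain CD11b, fell 1.62-fold (adjusted p = 0.0409), a call lost with a replicate block (adjusted p = 0.282), with quantile normalization (adjusted p = 0.0737) and when the most variable probe was used instead (adjusted p = 0.0539). Leaving out 1 array ended it for 5 of the 7 (adjusted p from 0.0886 to 0.195), namely knockout-labelled replicates 1 and 3 and controls 1, 3 and 4. The 14 plasmacytoid dendritic cell genes were all tested and none passed the limma test, with 4 lower and none higher at an unadjusted p under 0.05, beside 7.34% and 6.14% of all genes. Ccr9, a gut homing receptor of these cells, had a log2 fold change of -0.996 (adjusted p = 0.0814), and Lag3 of -0.74 (adjusted p = 0.132). Ccr9 passed with normexp background correction (adjusted p = 0.0467), without a filter on dim probes (adjusted p = 0.0349) and with array weights (adjusted p = 0.0267). Lag3 passed with normexp (adjusted p = 0.0125), and also when control replicate 3 was left out (adjusted p = 0.047). Of 14 genes common to dendritic cells none passed, with 1 lower and none higher at an unadjusted p under 0.05 (7.34% and 6.14% of all genes), and their median log2 fold change was -0.01. Their summed level was 269.4 to 315 on the knockout-labelled arrays and 280.5 to 332.7 on the controls, with overlap. That of the plasmacytoid genes also overlapped, at 189.2 to 236.9 against 207.6 to 240.6. Of 10 tested monocyte and macrophage genes 6 fell, beside 1.39% of all genes. Cd14, a co-receptor for bacterial lipopolysaccharide, fell 3.05-fold (limma adjusted p = 0.000234). F13a1, which encodes a chain of coagulation factor XIII, fell 3.22-fold (limma adjusted p = 0.000489). Of that list 3 fell with the replicate block, and 4 with a common floor, with probes well above background on all arrays alone (of 8 tested), and without replicate 1 or 3 labelled knockout. Its summed level was 61.7 to 72.5 on the knockout-labelled arrays against 102 to 117.5 on the controls. The part of these cells in the marker values was not tested.

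**Figure D3:**
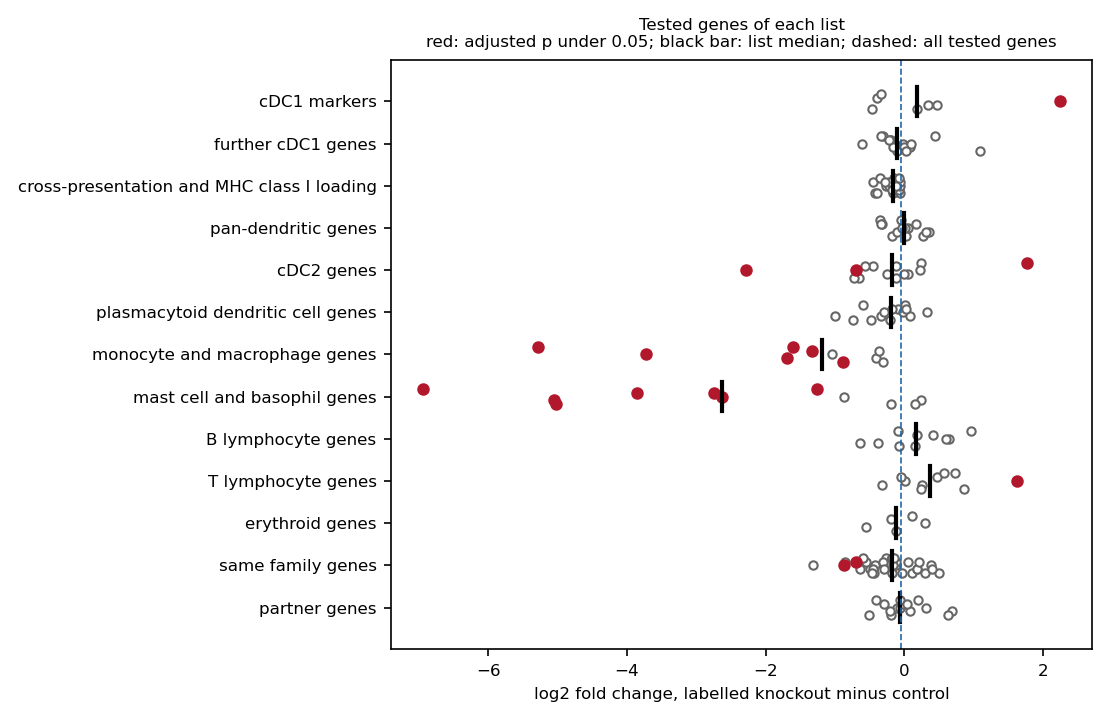
Log2 fold change of every tested gene of each list, labelled knockout minus control, with called genes in red, list medians as black bars and the median of all tested genes, -0.05, as a dashed line. The cDC1 rows hold 1 called gene, Gcsam, and the mast cell and basophil and the monocyte and macrophage rows hold 7 and 6, all below 0.

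The genes of the whole table whose pattern over the 7 arrays was nearest to each marker were found by the mean absolute difference of levels after each gene was centred on its own mean. For Gcsam these were Col4a5, a collagen chain, at 0.214 log2 units and Il17re, a receptor chain for interleukin 17C, at 0.225. For the other markers the nearest gene was closer, between 0.027 for Tubg1 beside Snx22 and 0.083 for Gast beside Cadm1. Levels were centred but not scaled, so this distance tends to grow with a gene's spread over the arrays. Gcsam had the largest log2 fold change of the 7 markers. Thra was nearest to Wdfy4 at 0.036, Rnf41 to Naaa at 0.06, Aif1 to Rab7b at 0.047 and Gm5797 to Cd24a at 0.06. With 7 arrays and 14549 genes, near patterns are found for any gene.

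**Figure D4:**
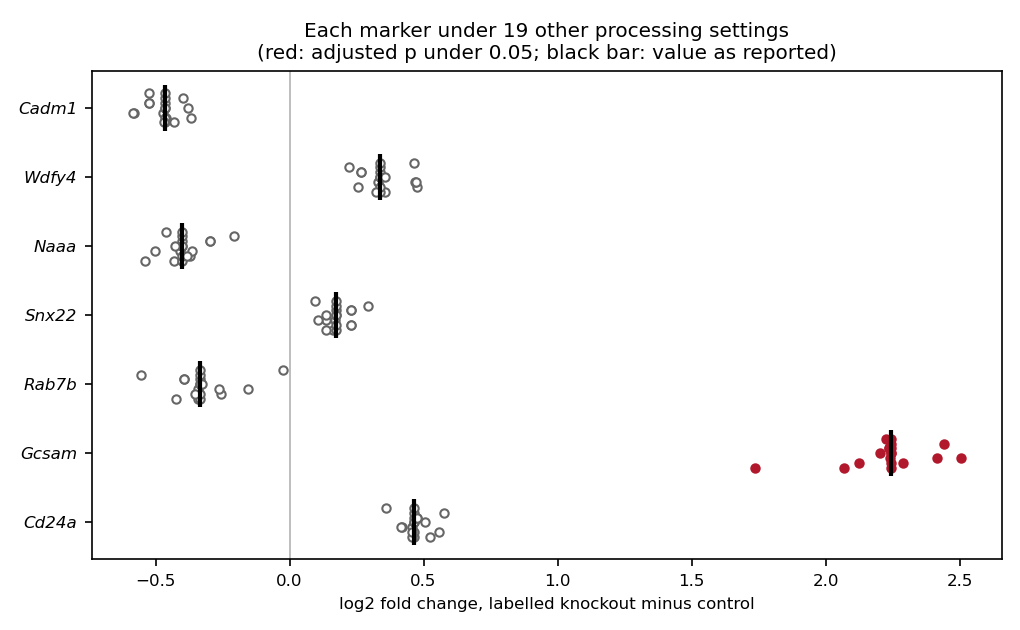
Log2 fold change of each measured marker under 19 other processing settings (points, red where the adjusted p was under 0.05) beside the value as reported (black bar). Gcsam stays between 1.74 and 2.50 and is called in each, the other 6 markers are called in none, and Rab7b comes nearest to 0, at -0.02.

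Across the 19 other settings each of the 7 markers kept its direction, and Gcsam kept its call, with adjusted p from 0.000501 to 0.0203. Several of these settings could not move a marker's log2 fold change, as set out under the processing below. The lowest adjusted p of any other marker was 0.0873, for Cadm1.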

How the data were processed

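Amplified RNA carried the Cy3 dye, per the labels' protocols. The deposited scanner files give an intensity for each spot. Per the file headers it was made with Agilent Feature Extraction version 10.7.3.1, and the processed signal used here is background-subtracted. The deposited series table holds log2 values centred on each probe's median over the arrays. The submitters state neither scale nor centring nor direction, so these were found by comparison. Differences between arrays followed those of the scanner values with a correlation and slope of 1 at 3 decimals. Column medians were 0, or -0.02 for replicate 3 labelled knockout. It was used as an alternative.

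The processed signal was put on the log2 scale relative to the 75th percentile of each array's non-control spots, which puts that percentile (2671 to 3825 intensity units) at 0. Outlier spots were left out, and a fit drops the array where one was flagged. None of the markers' tested probes was affected. Probes were kept where 3 or more of the 7 arrays were well above background (34133 of 55681). Names came from matching transcript accessions without versions to RefSeq (GRCm38.p6), which named 26413 probes (47.4%). Since the array design uses an older build, probe coordinates are left out. Each gene was read from its brightest tested probe.

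The group difference was fitted with limma 3.58.1 (lmFit, eBayes; R 4.3.3) on all 14549 genes, without a block, with Benjamini-Hochberg adjustment at 0.05. On simulated data with the means and spreads of these 14549 genes, 52.6% of genes changed by 1 log2 unit and 88.8% of those changed by 2 were called, and 4.3% of calls were unchanged genes. The number of arrays limits the precision. For normexp the median spot signal stood in for the mean signal that had been planned. The markers, gene lists, tests and alternatives were chosen with earlier results of these data known. Genes named from other lists are those past the threshold, at most 4 per direction, or else the largest differences, plus defining markers, and some that this rule takes are not reported here. Others (Cadm3, Cadm4, Asah1, Napepld, Rab7, Snx20, Snx24, Aim2, Ifi209, Ifi214, Siglecg, Itgb7, Cdh1, Xcr1, Cd8a, Cd2, Zap70 and Cd3e) were named for their tie to a marker after their values were seen. Septin3, Kit and Cd28 were named for their share of a summed level, also after their values were seen.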

Additional observations from a re-analysis of the deposited data

Results flagged for a closer look

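In 2 genes named beside the markers, 1 control array lay far from the other 3. For Irf8, control replicate 1 at 6.02 lay below the others at 6.10 to 6.11, and its gap was 0.894 of the control range. For Nectin3, control replicate 1 at -2.89 lay above the others at -3.93 to -3.83, a gap of 0.912 of the range. Both exceed Dixon's 95% critical value for 4 samples. Chance flags about 1 in 20 groups, and none of the 7 markers was flagged.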

How the results depend on the processing

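Each of the 7 markers kept its direction and its side of the threshold under all 19 alternatives, and the count of markers was 1 higher and 0 lower in each. Part of this agreement was fixed in advance. The filter, floor, outlier, probe choice and variance trend settings could not move a marker's log2 fold change. Each marker had 1 tested probe, with no outlier flag, above the floors and well above background on all 7 arrays. The deposited series table follows the scanner values, so its log2 fold changes were nearly the same. Counts over all genes moved more. Of 219 higher and 202 lower genes, there were 380 and 374 with array weights, 365 and 2483 without a filter on dim probes, and 86 and 95 with a replicate block, and 311 were lower with each array's own floor. With 1 array left out, the higher count lay between 88 and 225 and the lower between 105 and 178. Leaving out any of the 3 knockout-labelled arrays moved the higher count by over 1.5 times (88 to 145), and leaving out replicate 3 of either group so moved the lower count (105 and 133). The cause was not tested. Of the calls, 52% were higher, against 40.8% with normexp correction. Batf3, which was not called, had a log2 fold change between -0.0167 (without control replicate 2, adjusted p = 0.976) and 0.1891 when 1 array was left out. Same-numbered arrays did not deviate together (correlations of -0.0975, -0.17 and -0.0486), so the numbers were not taken as pairs. With the replicate block Gcsam had a log2 fold change of 2.24 (adjusted p = 0.0203).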
